A study of Mus musculus with 8 samples.

Results

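The Rab genes encode the largest branch of the Ras-like small GTPases. For this account the family was taken as every protein-coding mouse gene whose symbol is Rab, a number and at most a letter, with nothing after it. By that rule 59 of the 55487 genes in the count table were members. A further 18 rows with a longer symbol or no protein, such as Rab3gap1, the Rab11fip genes and the pseudogene Rab7-ps1, were left out.

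Rab proteins switch between an active GTP-bound form, which sits on a membrane and recruits effectors, and an inactive GDP-bound form, which is kept soluble in the cytosol. Guanine nucleotide exchange factors (GEFs) load GTP, GTPase-activating proteins (GAPs) end the signal, and the escort and GDI proteins handle the lipid anchor. Each compartment carries its own Rab proteins. After a phagocyte takes up a corpse, the young phagosome carries Rab5, which gives way to Rab7 as the phagosome matures and fuses with lysosomes, while other members return membrane and receptors to the surface or feed lysosome-related and secretory organelles. In dendritic cells these routes help set how quickly cargo is degraded and how much antigen is left for presentation.

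The study compared untreated BMDC with BMDC-fer, BMDC that had taken up ferroptotic cells, in 4 libraries each. BMDC are dendritic cells grown from bone marrow in GM-CSF (20 ng/ml, 10 days by the sample labels), here from wild-type female C57BL/6J mice aged 6 to 8 weeks. In these cultures about 80% of cells stain for CD11c by the methods of the study, so a minority are other cells. For BMDC-fer, stained BMDC were kept for 4 h with Jurkat cells, a human T-cell leukemia line killed by ferroptosis (0.5 µM ML162, a GPX4 inhibitor, for 14 h), and those carrying the cargo were sorted. Untreated BMDC had neither co-culture nor engulfment, so co-culture, uptake and sorting cannot be told apart. No source says which animals gave which library, and the p-values measure the spread between these libraries.

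Total counts lay between 39326672 and 50532209 per library. Values are given in CPM, counts relative to the TMM-scaled library size, and a floor of 3 counts stood for 0.0607 to 0.0785 CPM; this floor covers counting error only. Itgax, which encodes CD11c, was abundant in every library (748 to 1410 CPM). In both groups replicates 1 and 2 stood apart from replicates 3 and 4, so effects are also given within each of these replicate pairs. The summed level of 8 neutrophil markers was 44.8 to 261 CPM in BMDC, against 13.9 to 43.7 CPM in BMDC-fer, and 4 of the 8 were called lower, or 8 of 8 with the replicate number as a block. Of 8 dendritic markers, 3 were called lower (Flt3, Ccr7 and Irf4; 6 with the block), and their sum, which is mostly Cd74 and H2-Ab1, was 6620 to 14800 CPM against 3090 to 7260 CPM. For 10 T-cell genes, the lineage of Jurkat, the sum was 36.9 to 44.1 CPM in BMDC, against 35.7 to 56.8 CPM in BMDC-fer. Most of that sum was Cd28. Cd3e reached at most 0.147 CPM, whereas Cd3g reached 4.4 CPM (BMDC replicate 1) and Lat 9.46 CPM (BMDC replicate 3). Of the 4 genes tested 1 was called lower (Lck), or 2 with the block. Of 5 B-cell genes 1 was tested and 0 called. Of all 15411 tested genes, 5.91% were called lower, and 1253 genes were called lower with the block. Human counts were not analysed here.

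Nearly all members encode the features a Rab needs to bind GTP and a membrane, and the DNA that encodes them is shown for the 4 genes called below and for Rab7, the closest relative named beside them. The phosphate-binding loop holds the GTP. It was searched as the Walker A motif of 8 codons in the longest annotated coding sequence of each gene (GENCODE M21, GRCm38). The capitals mark its last 3 codons, which encode glycine, lysine and threonine.

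Rab7 loop: ggggactctggtgttGGAAAGACC
Rab7b loop: ggtgcacttggcgtgGGAAAGACC
Rab27a loop: ggagactctggggtaGGGAAGACC
Rab30 loop: ggcaacgctggagtgGGAAAGACG
Rab43 loop: ggcgacgcgagcgtgGGCAAGACG

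These are codons 15 to 22 in Rab7 and Rab7b, where an intron splits the loop, 16 to 23 in Rab27a and Rab30, and 23 to 30 in Rab43. The unsplit loops lie in coding exons at chr9:73075460-73075483 on the plus strand (Rab27a), chr7:92820036-92820059 on the plus strand (Rab30) and chr6:87811455-87811478 on the minus strand (Rab43). The motif was present in 57 of the 59 members, all but Rab40b and Rab40c, and in 4.34% of 21576 protein-coding genes. The tail is where lipid is attached to cysteine so that the protein can hold on to a membrane. The last 5 codons are shown with cysteine codons in capitals.

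Rab7 tail: gaaagcTGCagtTGT
Rab7b tail: aagagcagaTGCTGC
Rab27a tail: gggttgTGTggcTGT
Rab30 tail: TGTTGTaatttcaac
Rab43 tail: tggggcTGTgggTGC

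These stretches lie at chr6:88000438-88000452 on the minus strand (Rab7), chr1:131711680-131711694 on the plus strand (Rab7b), chr9:73095439-73095453 on the plus strand (Rab27a), chr7:92835922-92835936 on the plus strand (Rab30) and chr6:87792593-87792607 on the minus strand (Rab43). Of the 5, Rab30 is the only one whose cysteines are followed by further residues. All 59 members had a cysteine within the last 4 codons and 44 had at least 2 there, against 10.7% and 1.35% of protein-coding genes. Members had 194 to 973 codons with a median of 215, and the longest was Rab44, which carries a large extra domain before its GTPase part.

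In BMDC-fer most of the family stayed close to its level in BMDC over all libraries, and a few members moved. The absolute log2 fold change was under 0.58 for 36 of the 49 tested members, against 11208 of all 15411 tested genes. For 18 of the 49 the effect differed between the replicate pairs (interaction test), against 37.8% of all tested genes. Rab7b rose 2.50-fold, while Rab27a, Rab30 and Rab43 fell. Genes counted as called had to reach the limits the study set, 0.05 for the adjusted p and 0.58 for the log2 fold change (either direction), in edgeR's quasi-likelihood test. The p-values were adjusted by Benjamini-Hochberg over all 15411 tested genes, and SE stands for the standard error of a log2 fold change. Of the 59 members, 49 passed the filter on low counts and were tested, and 4 of them were called (8.16%), against 9.38% of all tested genes. Called higher was 1 member, against 3.47% of all tested genes, and called lower were 3, against 5.91%. The members' share of calls was thus near that of all genes. The median log2 fold change was 0.06 over the tested members, with a range from -2.74 to 1.32, and 0.00 over all tested genes. With the replicate number as a block 4 members were called, against 13.0% of all genes. Rab43 lost its call in that fit and Rab44 gained one.

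**Figure D1:**
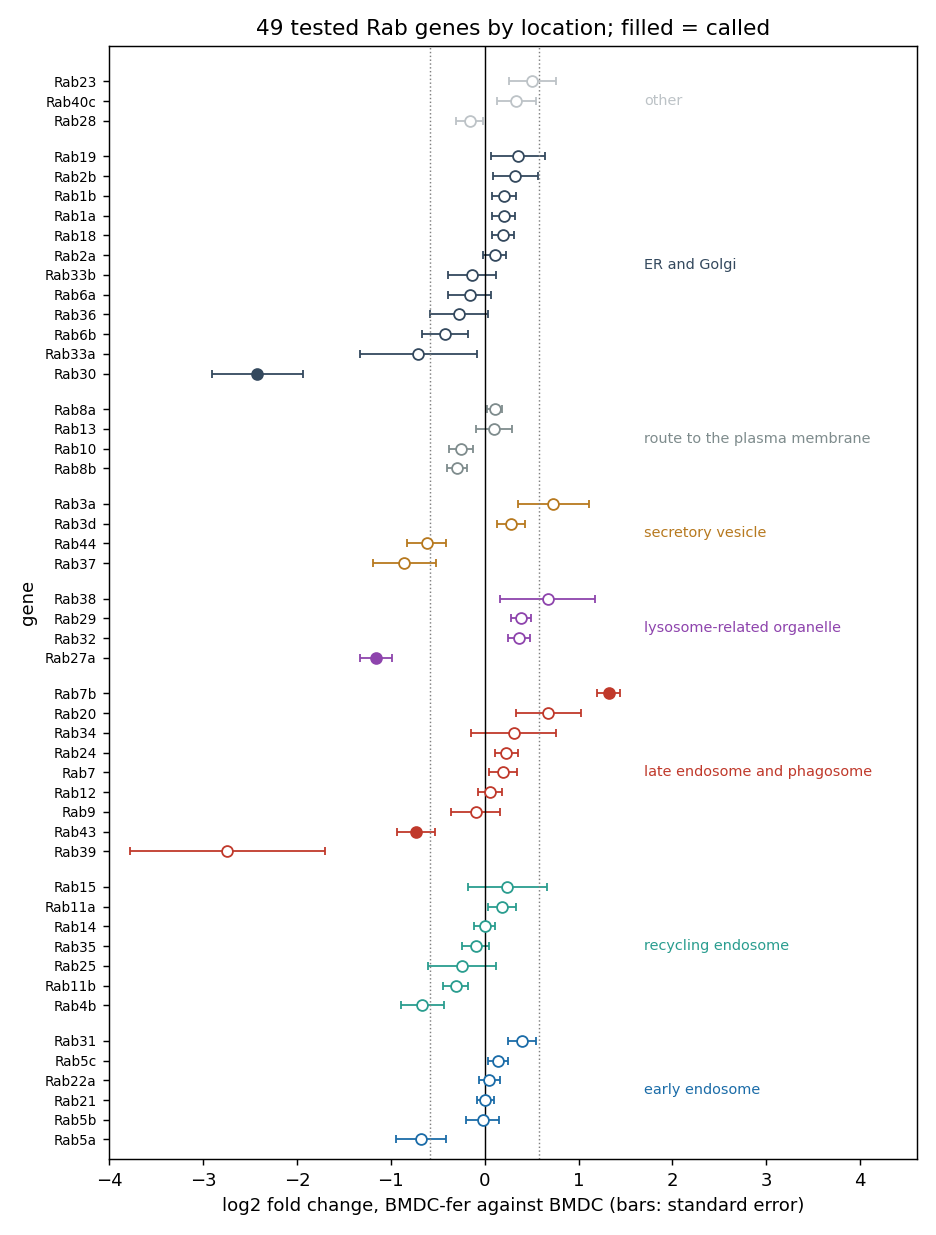
Log2 fold change of BMDC-fer against BMDC (x axis) for the 49 tested Rab genes, grouped by the compartment they are known for, with bars of 1 standard error; dotted lines mark 0.58 in either direction, and filled points are called. Most points lie between the dotted lines, with Rab7b to the right and Rab27a, Rab30 and Rab43 to the left; Rab39 lies farthest left with the widest bar and is not called.

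The family took 0.343% to 0.409% of the normalized counts of a library. The summed level of all members was 3430, 3490, 4030 and 4030 CPM in BMDC replicates 1 to 4 and 3840, 3960, 4090 and 3970 CPM in BMDC-fer replicates 1 to 4. The groups overlapped, and the 2 lowest libraries were BMDC replicates 1 and 2. Levels of different genes are compared per kilobase of exon. By that measure Rab7, the Rab of late endosomes and maturing phagosomes, was highest (259 CPM per kilobase in BMDC and 297 in BMDC-fer). It was followed by the early endosome gene Rab5c (139 and 153) and by Rab1b, which works between the ER and the Golgi (78.1 and 90.0). The order of these 3 genes was the same in both groups, and none was called.

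**Figure D2:**
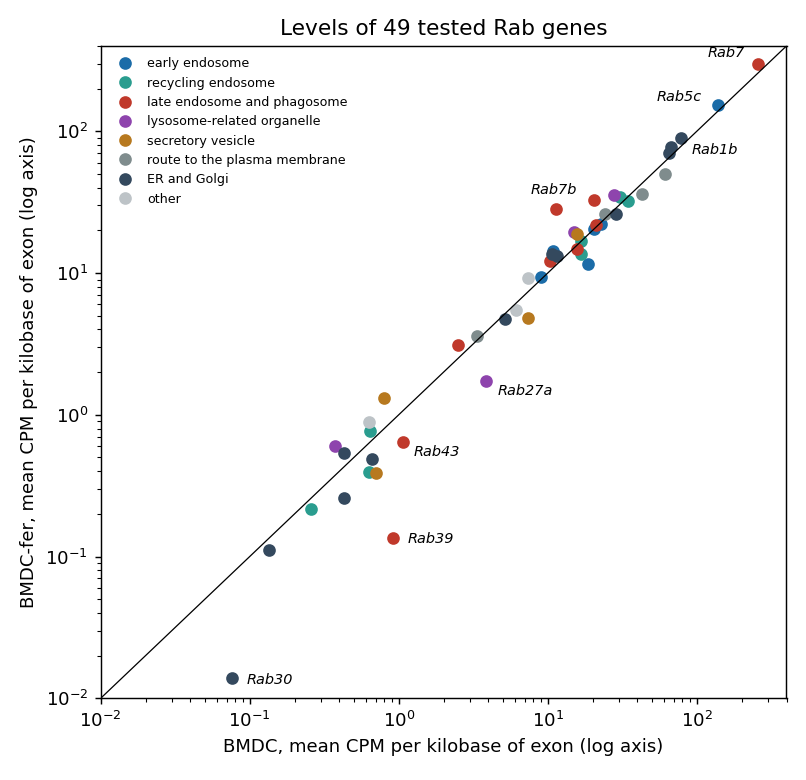
Mean CPM per kilobase of exon in BMDC (x axis, log scale) against BMDC-fer (y axis, log scale) for the 49 tested Rab genes, coloured by compartment, with the line of equal level. Rab7 (259 against 297) and Rab5c (139 against 153) lie at the top near the line, Rab7b (11.4 against 28.4) lies above it, and Rab27a (3.88 against 1.74), Rab43, Rab39 and Rab30 lie below it.

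The member with the lowest adjusted p, Rab7b, belongs to the late endosome and phagosome list. Rab7b, a relative of Rab7 that acts between late endosomes and the trans-Golgi network, was at 48.5, 59.9, 56.4 and 45.6 CPM in BMDC replicates 1 to 4. In BMDC-fer replicates 1 to 4 it was at 132, 137, 113 and 144 CPM. Every BMDC-fer library lay well above every BMDC library. The mean went from 52.6 ± 6.64 CPM to 131 ± 13.2 CPM (SD, n = 4 each), which is 1.32 on the log2 scale (SE 0.13, adjusted p = 0.00207 in edgeR). The effect was 1.31 (replicates 1 and 2) and 1.33 (replicates 3 and 4), and the call was kept when any of the 8 libraries was left out. In bulk libraries, more cells of a kind and more RNA per cell cannot be told apart. The 8 macrophage markers summed to 1920 to 3190 CPM in BMDC, against 2470 to 4060 CPM in BMDC-fer, and their median log2 fold change was 0.48. Of the 8, 7 had positive values, none of them called, with Csf1r higher in every BMDC-fer library, and Adgre1 was called lower; their part in the Rab7b values was not tested. Rab7b lies on chromosome 1 from 131688695 to 131715439 (plus strand), and its coding sequence is 59.6% identical to that of Rab7, with no shared stretch of 50 bases, so reads of the 2 genes can be separated.

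Rab7 itself was at 605, 533, 798 and 771 CPM in BMDC replicates 1 to 4 and at 789, 711, 808 and 797 CPM in BMDC-fer. The BMDC-fer libraries stood at the level that BMDC replicates 3 and 4 already had. Its log2 fold change was 0.20 (SE 0.15, adjusted p = 0.412 in edgeR), and 16.2% of its 50-base stretches are also found in Rab7-ps1. The difference between the changes of Rab7b and Rab7 was not tested.

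Rab43, which has been linked to phagosome maturation and to cross-presentation by dendritic cells, was at 7.21, 6.72, 5.11 and 4.64 CPM in BMDC replicates 1 to 4. It was at 3.72, 3.18, 4.03 and 3.30 CPM in BMDC-fer. The groups did not overlap, but the lowest BMDC library was close to the highest BMDC-fer library. The log2 fold change was -0.73 (SE 0.20, adjusted p = 0.0481 in edgeR), and leaving out any single library of the 8 ended the call. The replicate block moved the adjusted p in edgeR to 0.0592. The edgeR and DESeq2 alternatives gave 0.00356 to 0.130. This range leaves out the test against the fold threshold and the effects within each replicate pair. Rab43 (chromosome 6, 87788853 to 87812164, minus strand) shares 90.4% of its 50-base stretches with Gm45140, a gene annotated over it on the same strand, so its count is uncertain. The neutrophil and dendritic markers given above had negative log2 fold changes as well, from -3.90 to -1.50 and from -4.06 to -0.10. Of these, 4 of the 8 neutrophil and 3 of the 8 dendritic markers were called lower. Their part in the Rab43 values was not tested.

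Among the other genes of this compartment, replicate pairs often disagreed. Rab20, a hypoxia-responsive gene whose product sits on maturing phagosomes, was at 21.9, 23.6, 36.4 and 31.4 CPM in BMDC and at 61.5, 66.9, 23.9 and 28.9 CPM in BMDC-fer replicates 1 to 4. It was higher in BMDC-fer in replicates 1 and 2 (1.495 on the log2 scale) and not in replicates 3 and 4 (-0.36), and this difference passed the interaction test (adjusted p = 0.000132 in edgeR). Over all libraries it was not called (0.68 on the log2 scale, adjusted p = 0.226 in edgeR), and 22.9% of its 50-base stretches are shared with E230013L22Rik, an antisense gene.

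Rab39, a Rab found on phagosomes and in autophagy, had 232, 237, 17 and 8 counts in BMDC replicates 1 to 4 and 36, 18, 14 and 4 counts in BMDC-fer. The high counts were confined to BMDC replicates 1 and 2. The difference, -2.74 on the log2 scale with an SE of 1.04, did not reach a call (adjusted p = 0.117 in edgeR), although DESeq2 called it (adjusted p = 0.0199). The edgeR and DESeq2 alternatives gave 0.0199 to 0.239, leaving out the test against the fold threshold and the effects within each replicate pair. The effect was -3.12 for replicates 1 and 2 (adjusted p = 0.000503 in edgeR) and -0.43 for replicates 3 and 4, with an adjusted p of 0.0171 for the interaction in edgeR.

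Rab34, which positions lysosomes and acts in phagosome maturation, also differed between the pairs, with log2 fold changes of 1.02 and -0.00 in the pairs (adjusted p = 0.00957 for the interaction in edgeR). Rab9, which returns mannose 6-phosphate receptors to the Golgi, Rab12 and Rab24, an autophagy-linked Rab, were not called, with log2 fold changes of -0.10, 0.06 and 0.23. The sign was not stable for Rab9, which was 0.05 in replicates 1 and 2, nor for Rab12, which was -0.05 in replicates 3 and 4. Rab24 shares 48.9% of its 50-base stretches with Prelid1. Rab9b was at 0 counts in all 8 libraries. The 10 genes of the list summed to 789, 725, 1040 and 989 CPM in BMDC replicates 1 to 4 and to 1110, 1030, 1080 and 1100 CPM in BMDC-fer. Rab7 and Rab7b make up most of this sum.

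**Figure D3:**
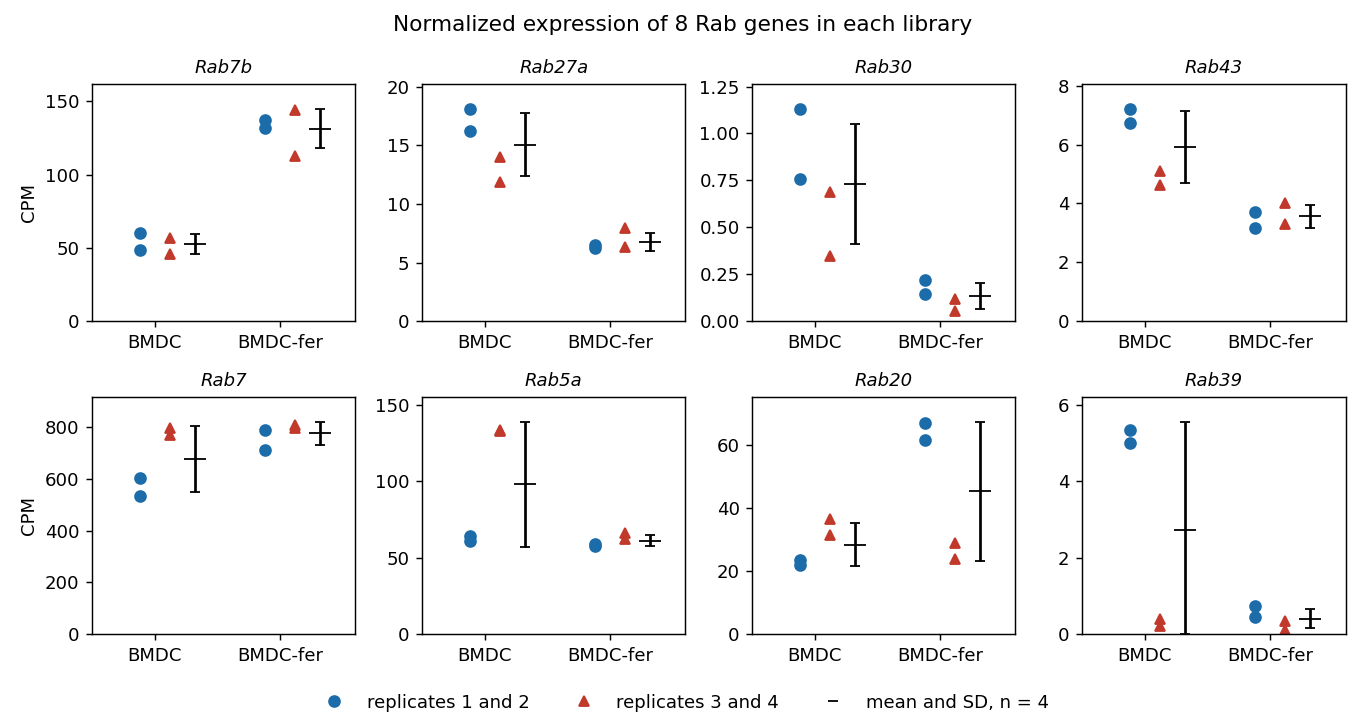
CPM (y axis, from 0) of 8 Rab genes in each BMDC and BMDC-fer library, with circles for replicates 1 and 2, triangles for replicates 3 and 4, and a bar for the mean and SD (n = 4; the lower arm for Rab39 is drawn to 0). Rab7b, Rab27a, Rab30 and Rab43 separate the groups in every library, whereas for Rab5a, Rab20 and Rab39 the separation rests on a single replicate pair.

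The early endosome genes were expressed in all libraries and none of the 6 was called. Rab5a was at 64.5, 61.0, 133 and 134 CPM in BMDC replicates 1 to 4 and at 58.7, 57.6, 66.1 and 62.6 CPM in BMDC-fer. Replicates 3 and 4 of BMDC thus stood well above all other libraries. Its log2 fold change was -0.68 (SE 0.27, adjusted p = 0.132 in edgeR), and within the pairs it was -0.11 (replicates 1 and 2) and -1.05 (replicates 3 and 4). These effects differed, with an adjusted p of 0.00026 for the interaction in edgeR. Its paralogues Rab5b and Rab5c serve the same compartment. Rab5b averaged 95.0 ± 8.94 CPM in BMDC against 93.5 ± 22.6 CPM in BMDC-fer, with effects of -0.41 and 0.31 in the pairs. Rab5c was 304 ± 9.98 CPM and 335 ± 34.4 CPM, with effects of 0.29 and -0.03 (SD, n = 4 each). The coding sequences of the 3 Rab5 genes are 67.8% to 74.1% identical and share no stretch of 50 bases, although 13.0% of the Rab5b stretches occur in Gm13991. Rab31, which acts between the Golgi and early endosomes, was 41.1 ± 7.08 CPM in BMDC against 54.1 ± 6.19 CPM in BMDC-fer (SD, n = 4 each). All its BMDC-fer libraries (50.3 to 63.3 CPM) were above all BMDC libraries (30.9 to 46.7 CPM), but it was not called (0.40 on the log2 scale, adjusted p = 0.115 in edgeR). Rab21 and Rab22a, which serve integrin and early endosome traffic, had log2 fold changes of 0.01 and 0.05, with standard errors of 0.09 and 0.11; their signs turned in replicates 1 and 2 for Rab21 (-0.08) and in replicates 3 and 4 for Rab22a (-0.09).

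None of the 7 tested recycling endosome genes was called either. Rab11a and Rab11b, the main Rabs of the recycling compartment, had log2 fold changes of 0.18 and -0.31 (standard errors 0.15 and 0.13), with means of 91.0 and 103 CPM in BMDC and 103 and 83.2 CPM in BMDC-fer. For Rab11a the sign turned within replicates 3 and 4 (-0.04), and 14.04% of the Rab11b stretches of 50 bases are shared with Rab11b-ps2. Rab14, abundant at 228 ± 11.7 CPM in BMDC against 227 ± 28.4 CPM in BMDC-fer (SD, n = 4 each), had a log2 fold change of -0.00 that became 0.02 with upper-quartile scaling. Rab35, which controls fast recycling, went opposite ways in the pairs (-0.37 and 0.21, edgeR interaction adjusted p = 0.0031). Rab15 did so too (1.19 and -0.74, edgeR interaction adjusted p = 0.017). The epithelial Rab25 was scarce (0.232 to 0.624 CPM), and Rab17, also epithelial, reached at most 0.0607 CPM and was not tested. Rab4b was lower in every BMDC-fer library (0.636 to 0.942 CPM) than in every BMDC library (1.04 to 1.38 CPM). It was not called (-0.67 on the log2 scale, adjusted p = 0.0909 in edgeR), and 93.0% of its 50-base stretches belong also to Gm21983. Its paralogue Rab4a, at most 0.224 CPM, was not tested.

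Among the Rabs of lysosome-related organelles 1 was called, and it was lower in BMDC-fer. Rab27a, which docks secretory lysosomes, melanosomes and exosome-bearing endosomes at the plasma membrane, was at 18.1, 16.2, 11.9 and 14 CPM in BMDC replicates 1 to 4. It was at 6.25, 6.51, 7.93 and 6.33 CPM in BMDC-fer. Every BMDC-fer library was below every BMDC library. The mean fell from 15.1 ± 2.72 to 6.76 ± 0.789 CPM (SD, n = 4 each), 2.23-fold, with a log2 fold change of -1.16 (SE 0.17, adjusted p = 0.00664 in edgeR). It fell by 1.43 on the log2 scale in replicates 1 and 2 and by 0.86 in replicates 3 and 4, and no left-out library ended the call. Rab27a lies on chromosome 9 from 73044854 to 73097629 (plus strand). Its paralogue Rab27b was near the floor (at most 0.213 CPM) and not tested. Neutrophils are rich in Rab27a, and the neutrophil markers that fell beside it, given above, moved in the same direction; their part in the result was not tested.

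The other tested members of this list had positive log2 fold changes and were not called. Rab32, which brings enzymes to lysosome-related organelles and to phagosomes, was at 60.2, 69.4, 64.1 and 65.3 CPM in BMDC and at 86.4, 98.9, 76.9 and 71.5 CPM in BMDC-fer. Rab29, a Rab tied to the kinase LRRK2, was at 23.4, 20.2, 21.2 and 22.6 CPM and at 28.2, 27.7, 31.5 and 26.8 CPM. For both genes the groups did not overlap. The log2 fold changes were 0.37 for Rab32 (adjusted p = 0.0783 in edgeR) and 0.38 for Rab29 (adjusted p = 0.050 in edgeR), under the fold threshold in both cases. Rab38, the nearest relative of Rab32 (63.1% identical in coding sequence), reached at most 1.25 CPM, with a log2 fold change of 0.67 (SE 0.51).

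Over the 4 endosome and phagosome lists together, 26 of 30 genes were tested and 3 were called, Rab7b higher and Rab27a and Rab43 lower (11.5%, against 9.38% of all tested genes). With the replicate block 2 were called, against 13.0%. These shares were near those of all genes. Their median log2 fold change was 0.06, with 0.20 within replicates 1 and 2 and -0.03 within replicates 3 and 4. Of the other 29 members, 23 were tested and 1 was called, with a median of 0.10.

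That gene was Rab30, a Golgi Rab that is also linked to autophagy of bacteria. It had 49, 36, 29 and 14 counts in BMDC replicates 1 to 4 and 7, 9, 5 and 2 counts in BMDC-fer, the lowest library being under the floor of 3 counts. The groups did not overlap. The mean fell from 0.731 ± 0.320 CPM to 0.134 ± 0.0692 CPM (SD, n = 4 each), which on the log2 scale is -2.42 (SE 0.48, adjusted p = 0.0175 in edgeR). The effect was -2.38 and -2.53 in the replicate pairs, and the call was lost without BMDC-fer replicate 3 or without BMDC-fer replicate 4. Rab30 lies on chromosome 7 from 92741603 to 92844535 (plus strand). It was the least expressed of the called genes. Beside it, 4 of the 8 neutrophil and 3 of the 8 dendritic markers were called lower, and the part of these markers was not tested. The abundant Rabs of the same route, Rab1a, Rab1b and Rab2a, had log2 fold changes of 0.20, 0.20 and 0.11, and the 12 tested ER and Golgi members had a median of -0.01.

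Of 7 secretory vesicle Rabs, 4 were tested. Rab44, a Rab with a large extra domain known from mast cells and osteoclasts, was at 34.1, 33.8, 37.2 and 44.7 CPM in BMDC and at 23.5, 15.5, 29.3 and 29.2 CPM in BMDC-fer. All BMDC-fer libraries were lower. Its log2 fold change was -0.62 (SE 0.21, adjusted p = 0.085 in edgeR), and it was called with the replicate block (adjusted p = 0.0361 in edgeR). The edgeR and DESeq2 alternatives gave 0.0127 to 0.175, leaving out the test against the fold threshold and the effects within each replicate pair. The 7 mast cell and basophil markers summed to 17.1 to 45.4 CPM in BMDC, against 5.83 to 14.7 CPM in BMDC-fer. Of the 7, 3 were tested and 0 called (1 with the block). Gata2, the largest part of the sum, had log2 fold changes of -1.975 (replicates 1 and 2) and -0.236 (replicates 3 and 4). Fcer1a, not tested, was at most 0.274 CPM in BMDC and at 0 in BMDC-fer. The part of these markers in the Rab44 values was not tested. Rab37, which acts in mast cell degranulation, was -0.12 (replicates 1 and 2) and -1.39 (replicates 3 and 4). Rab3a was 0.04 and 1.71 in the same pairs, and Rab3d, the abundant Rab3 of these cells at 65.4 ± 4.74 CPM in BMDC (SD, n = 4), had a log2 fold change of 0.28. Rab3b and Rab3c were not tested, and Rab3c had no count in any library, which allows at most 0.0607 to 0.0785 CPM.

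The Rabs of the route to the plasma membrane were not called. Rab8b was at 262 to 314 CPM in BMDC, against 215 to 261 CPM in BMDC-fer without overlap (-0.30 on the log2 scale, adjusted p = 0.101 in edgeR). Rab8a, 77.3% identical in coding sequence, was 113 ± 3.34 and 122 ± 5.51 CPM (SD, n = 4 each), which on the log2 scale is 0.11 with a standard error of 0.08. The 4 genes of that list, with Rab10 and Rab13, summed to 523 to 609 CPM in BMDC, against 469 to 518 CPM in BMDC-fer. In all, the libraries of the groups did not overlap for 10 of the 49 tested members, 4 higher and 6 lower in BMDC-fer, against 22.9% of all tested genes. The 10 members left out by the filter on low counts reached at most 0.530 CPM (Rab26 in BMDC replicate 1), and changes in them are not given here.

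The replicate pairs were then compared for all members. The effect within each pair was taken from a joint fit to all libraries. Within replicates 1 and 2, 11 members were called, against 22.3% of all tested genes. Within replicates 3 and 4, 11 were called as well, against 33.0%. Called in both pairs in the same direction were 3 members, Rab7b, Rab27a and Rab30, and in opposite directions 0. The matching shares of all tested genes were not computed. The effect differed between the pairs for 18 of the 49 members (36.7%, interaction test), against 37.8% of all tested genes. For 10 of the 18 the log2 fold changes had opposite signs, a share not computed over all tested genes. The 18 included Rab5a, Rab5b, Rab5c, Rab11a, Rab20, Rab34 and Rab39. No label says what sets replicates 1 and 2 apart from 3 and 4.

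**Figure D4:**
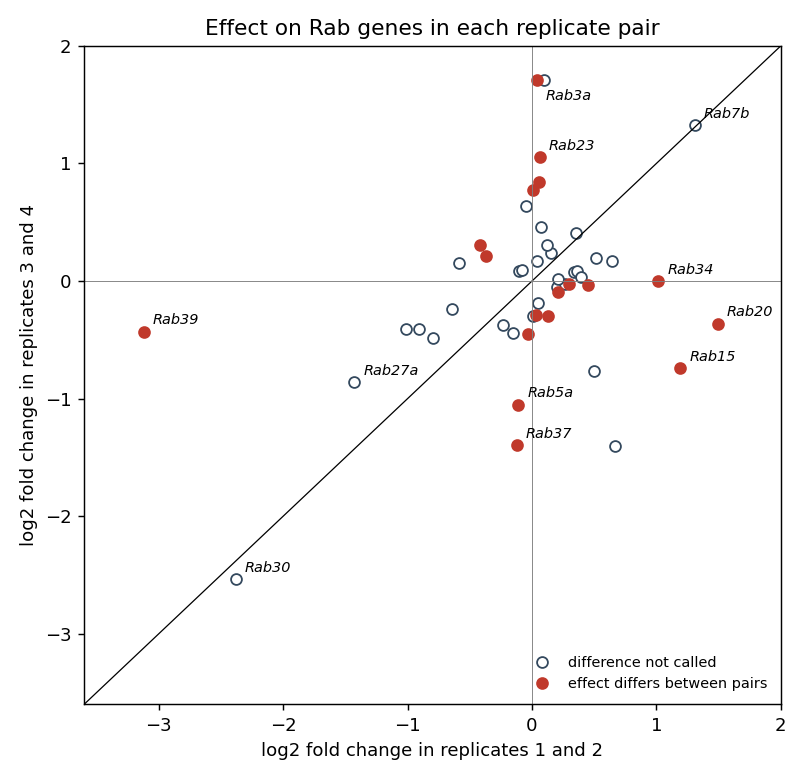
Log2 fold change of BMDC-fer against BMDC in replicates 1 and 2 (x axis) against replicates 3 and 4 (y axis) for the 49 tested Rab genes, with the line of equal effect; filled points are the 18 genes whose effect differed between the pairs. Rab7b (1.31 and 1.33) and Rab30 (-2.38 and -2.53) lie on the line, whereas Rab20, Rab15, Rab34, Rab39 and Rab5a lie far from it.

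The proteins that switch and read the Rabs were called in a larger share than the Rabs themselves, and the difference between these shares was not tested. Of 134 listed regulators and effectors 127 were tested and 22 called (17.3%), 8 higher and 14 lower, against 9.38% of all tested genes. With the block 23 were called, against 13.0% of all tested genes. Their median log2 fold change was 0.01.

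Among 15 effectors of late endosomal Rabs and subunits of HOPS, the complex that tethers vesicles to lysosomes, 3 were called higher and 0 lower. Of all tested genes, 3.47% were called higher and 5.91% lower. Rilp, the Rab7 effector that links late endosomes to dynein, was at 4.17, 4.51, 3.67 and 3.44 CPM in BMDC and at 8.72, 8.37, 8.86 and 11.3 CPM in BMDC-fer. Every BMDC-fer library was above every BMDC library, with a log2 fold change of 1.24 (SE 0.17, adjusted p = 0.00561 in edgeR). Plekhm1, a Rab7 effector that recruits HOPS, went from 55.9 ± 13.6 to 114 ± 6.35 CPM (SD, n = 4 each), which on the log2 scale is 1.03 (SE 0.17, adjusted p = 0.00862 in edgeR). Wdr91, another Rab7 effector, had a log2 fold change of 0.66 (chosen after its values were seen). The list had a median log2 fold change of 0.26, and its sum was 748 to 837 CPM in BMDC, against 1000 to 1060 CPM in BMDC-fer.

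Of 21 effectors of early and recycling endosomes, 3 were called lower, against 5.91% of all tested genes, and 0 higher. The groups did not overlap for 8 of the 21, against 22.9% of all tested genes, with 4 higher and 4 lower in BMDC-fer. The median log2 fold change of the list was 0.06. Rab11fip1 and Rab11fip4, which bind Rab11 and guide recycling vesicles, had log2 fold changes of -1.36 (SE 0.18, adjusted p = 0.00465 in edgeR) and -1.39 (SE 0.31, adjusted p = 0.0252 in edgeR). Rab11fip2, at -0.78, was the third and was chosen after its values were seen; its call was kept only when BMDC replicate 1 or 2 was the library left out. Rab11fip3 of the same family, also chosen after its values were seen, went the other way without being called. It was at 4.80 to 7.67 CPM in BMDC, against 8.18 to 13.2 CPM in BMDC-fer (0.72 on the log2 scale, adjusted p = 0.0617 in edgeR). DESeq2 called it (adjusted p = 0.0123). The edgeR and DESeq2 alternatives gave 0.0123 to 0.161, leaving out the test against the fold threshold and the effects within each replicate pair. The call of Rab11fip4 was lost without BMDC replicate 3, BMDC-fer replicate 3 or BMDC-fer replicate 4.

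Of 41 GAPs, 6 were called lower and 3 higher (22.0% called, against 9.38% of all tested genes). Rabgap1l was at 29.4, 30.7, 58.8 and 57.3 CPM in BMDC and at 9.55, 7.61, 8.94 and 7.70 CPM in BMDC-fer. This was a log2 fold change of -2.38 (SE 0.27, adjusted p = 0.00268 in edgeR). Tbc1d4, the GAP that holds back glucose transporter vesicles in insulin-responsive cells, fell 3.81-fold (-1.93 on the log2 scale, SE 0.14, adjusted p = 0.00163 in edgeR). Tbc1d2, a Rab7 GAP, rose 2.03-fold (1.02 on the log2 scale, SE 0.14, adjusted p = 0.00547 in edgeR), and Tbc1d24 had a log2 fold change of 0.73, whose call was lost without BMDC replicate 3 or 4 or without BMDC-fer replicate 1, 3 or 4. All 4 kept their groups apart, and the effect on Rabgap1l differed between the pairs (-1.80 and -2.80, adjusted p = 0.00252 for the interaction in edgeR).

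Of 36 GEFs, 3 were called lower and 2 higher (13.9% called, against 9.38% of all tested genes). Dennd4a, an exchange factor for Rab10, fell 4.14-fold (-2.05 on the log2 scale, SE 0.21, adjusted p = 0.00225 in edgeR), and Dennd1b, an exchange factor for Rab35, had a log2 fold change of -0.82. Rin2, an exchange factor for Rab5, rose (0.75 on the log2 scale, SE 0.12, adjusted p = 0.00939 in edgeR). Sh3bp5, which activates Rab11, had a log2 fold change of 0.65 (adjusted p = 0.0289 in edgeR) and lost its call when any library other than BMDC replicate 4 or BMDC-fer replicate 3 was left out. It also lost its call with the replicate block (adjusted p = 0.0545 in edgeR). The edgeR and DESeq2 alternatives gave 0.00222 to 0.0716, leaving out the test against the fold threshold and the effects within each replicate pair.

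Of the kinases and the phosphatase that act on the Rab proteins, Lrrk2, which phosphorylates Rab8, Rab10 and Rab29 among others, was at 41.7, 36.9, 27.3 and 32 CPM in BMDC and at 10.7, 8, 16.6 and 13.0 CPM in BMDC-fer. The groups lay far apart, with a log2 fold change of -1.51 (SE 0.24, adjusted p = 0.00758 in edgeR). Lrrk1, a kinase of Rab7, had a log2 fold change of -1.04 (SE 0.23, adjusted p = 0.0255 in edgeR), and its call was lost without BMDC replicate 2 or without any of BMDC-fer replicates 2, 3 and 4. None of the 8 genes of the membrane cycle, the escort, prenylation and GDI genes, was called, and none of the 3 tested of 10 Rab27 and Rab3 effectors.

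**Figure D5:**
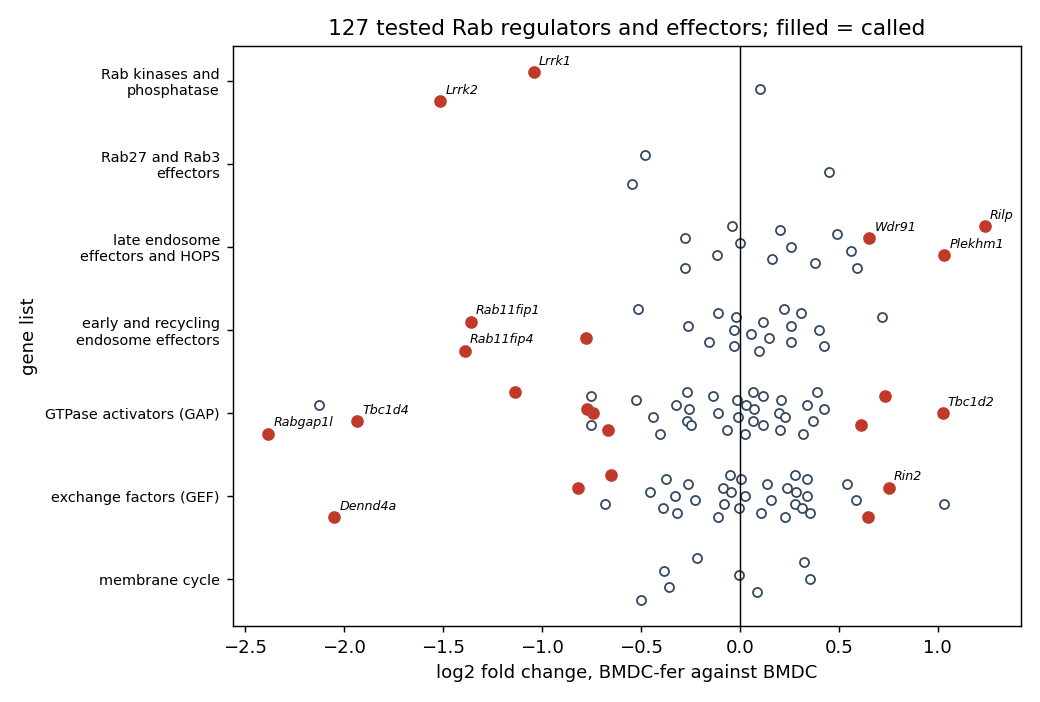
Log2 fold change of BMDC-fer against BMDC (x axis) for the 127 tested Rab regulators and effectors in 7 lists (y axis; the spread within a list only separates points); filled points are called. The late endosome list has 3 called genes, all to the right of 0. The early and recycling list has 3, all to the left, and both Lrrk genes lie to the left. Of all tested genes, 3.47% were called higher and 5.91% lower.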

How the data were processed

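Mouse mRNA was sequenced from 4 BMDC and 4 BMDC-fer libraries. The authors mapped filtered reads with HISAT2 (mm10 per the submitters' processing notes), counted them per gene with featureCounts and deposited raw counts, used here without change. Use of strand and handling of multiply mapped reads are not given in the sources used here, so shared bases with other genes were counted in stretches of 50 and overlapping genes are named. GENCODE M21 (GRCm38) named 55227 of the 55487 identifiers.

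The analysis used edgeR 4.0.16 in R 4.3.3, with TMM, filterByExpr (minimum count 10, 15411 genes kept) and quasi-likelihood tests with Benjamini-Hochberg adjustment over all tested genes. DESeq2 1.42.0, the tool of the study, was an alternative, as were other scalings and filters and a test against the fold threshold (glmTreat). Further alternatives were each library left out, a replicate block, a covariate for the replicate pair and the effect within each replicate pair. That effect came from a joint fit to all libraries, not from a fit of each pair alone. Ranges of adjusted p over the alternatives leave out glmTreat and the effects within each replicate pair. The tests were tried first on simulated counts.

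Members and lists were chosen with earlier results of these data known. Genes named are all called members, all tested endosome and phagosome Rabs, the 3 highest per kilobase, paralogues of these, and at most 2 rises and 2 falls per regulator list. Rab1a, Rab2a, Rab10, Rab13, Rab26, Rab28, Rab37, Rab40b, Rab40c, Rab44, Wdr91, Rab11fip2, Rab11fip3 and Gdi2 stand outside this rule and were chosen after their values were seen. No library was a copy of another. Same-numbered BMDC and BMDC-fer libraries deviated together from their group means (r across genes 0.313 to 0.445). So did libraries of the same pair with another number (0.186 to 0.379). Those of different pairs had negative values (-0.387 to -0.278). Deviations cancel out within a group, so positive values within pairs entail negative ones between pairs. The replicate block, which uses the numbers in the sample labels, was run because same-numbered libraries deviated together. The check separates replicates 1 and 2 from 3 and 4, but within replicates 3 and 4 the other-number values (0.342 and 0.379) were not below the same-number values (0.313 and 0.342).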

Additional observations from a re-analysis of the deposited data

Results flagged for a closer look

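In 98 groups of 4 libraries (49 tested members, 2 groups each), the gap between the most extreme library and its neighbour, as a share of the range, was above Dixon's 95% critical value for 4 values in 5, where chance gives about 4.9. It was 0.897 for Rab5b in BMDC replicate 2 (108 CPM, against 89.6 to 91.5 in the others) and 0.877 for Rab28 in BMDC-fer replicate 3. It was 0.847 for Rab1b in BMDC-fer replicate 2 and 0.842 for Rab31 in BMDC-fer replicate 2 (63.3 CPM). For Rab27a it was 0.846 in BMDC-fer replicate 3, whose 7.93 CPM was still below the lowest BMDC library.

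For 18 of the 49 tested members the edgeR interaction test found another effect in replicates 1 and 2 than in replicates 3 and 4, and for 10 of these the signs were opposite.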

How the results depend on the processing

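Of the 4 called members, the test against the fold threshold itself (glmTreat) left 1. A covariate for the replicate pair gave 7, and the effects within replicates 1 and 2 or within 3 and 4 gave 11 each. Leaving out 1 library gave 2 to 3, with 2 without BMDC-fer replicate 3 or 4. For the endosome and phagosome Rabs, 3 calls became 1 with glmTreat, 5 with the pair covariate and 9 in replicates 1 and 2, and 2 without any single library. For the regulators and effectors, 22 became 7 with glmTreat and 45 in replicates 3 and 4, and 14 to 20 with a library left out, the 14 being without BMDC-fer replicate 4. For all tested genes called, 1445 became 2261 with DESeq2, 2815 with the pair covariate, 225 with glmTreat, 3435 in replicates 1 and 2, 5092 in replicates 3 and 4, and 565 to 1440 with a library left out. The replicate block changed the calls of Rab43, Rab44 and Sh3bp5 and no other among the Rab genes and regulators named. The cause of these shifts was not tested.

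The median log2 fold change of the members moved from 0.061 to -0.027 in replicates 3 and 4. Over all 49 tested members the sign turned for 12 in replicates 3 and 4 and for 8 in replicates 1 and 2, none of them called over all libraries. The values below are for the endosome and phagosome members, for which all alternatives were computed together with the called members and paralogues. In replicates 3 and 4 the log2 fold changes became -0.035 for Rab11a, -0.053 for Rab12, 0.087 for Rab14, -0.738 for Rab15, -0.363 for Rab20, -0.093 for Rab22a, -0.003 for Rab34, 0.214 for Rab35, 0.310 for Rab5b and -0.027 for Rab5c. In replicates 1 and 2 they became -0.077 for Rab21, 0.499 for Rab25 and 0.052 for Rab9. Rab14 became 0.018 with upper-quartile scaling and 0.019 with no filter, and Rab21 became -0.00038 with a filter of a mean of 1 CPM. With a library left out, the values crossed 0 within -0.002 to 0.139 for Rab12, -0.073 to 0.063 for Rab14, -0.106 to 0.425 for Rab15, -0.024 to 0.055 for Rab21, -0.00072 to 0.126 for Rab22a, -0.192 to 0.002 for Rab35, -0.150 to 0.083 for Rab5b and -0.222 to 0.074 for Rab9. Members under the filter were not tested in the main fit.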
